A study of Mus musculus with 12 samples.

Results

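The 8 MHC class II genes described here are H2-Aa, H2-Ab1, H2-Eb1, Cd74, Ciita, H2-DMa, H2-DMb1 and H2-DMb2. They were chosen by their Ensembl gene IDs among the 22520 IDs of each table, of which 11680 had a read in any library. A filter on low counts left 6692 genes for testing, and 7 of the 8 genes were among them. H2-DMb1 had too few reads for this filter and is given by its reads alone, apart from the alternative fits, some of which tested it.

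MHC class II molecules display peptides from endosomes to CD4+ T cells, and B cells make them constitutively. An alpha and a beta chain form the molecule, the invariant chain (Cd74) fills its groove and guides it to endosomes, and the H2-DM dimer then exchanges the remaining invariant chain fragment for peptide. Ciita is the co-activator that switches these genes on. It binds no DNA itself and is recruited by factors sitting on the X and Y boxes of their promoters.

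Ribosome footprints, the mRNA stretches that ribosomes protect from nuclease, were sequenced from the mouse B cell lymphoma line 19PP, in the form of a subline that had lost its GFP and hCD2 reporters. The line arose in a Rag2-/-γC-/- mouse that had received bone marrow with Cγ1-Cre and Myc/P110*flSTOP. All groups share this origin, and Rag2-/-γC-/- is the genotype of the recipient mouse. It carried RPL12, a protein of the large ribosomal subunit, as wild type (WT) or with serine 38 replaced by alanine (S38A) or aspartate (S38D). Each genotype was harvested as asynchronous cells and as cells labelled mitotic, which had 100 ng/mL nocodazole for 8 hr and then 10 min in fresh medium, giving 6 groups of 2 libraries. Gene counts do not show the substitution in RPL12, so the genotypes are those of the labels. A mitotic state and the exposure to nocodazole cannot be told apart in this design. Neither the origin of the 2 libraries of a group (separate cultures or not) nor the number of clones behind a genotype is given by the labels, so the p-values rest on a spread that may be technical. A gene's footprints depend on how much of its mRNA there is and how often it is translated. RNA levels are not analysed here, and in a bulk sample fewer cells with an mRNA and less of it per cell cannot be told apart.

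Libraries held 258354 to 505500 reads in coding sequence. The 8 genes together took 1.40 to 1.94% of these reads, and Cd74 alone took 1.08 to 1.55%, with Wilson 95% intervals per library that spanned 1.05 to 1.60% for Cd74. Pairs of libraries of a group differed by more than counting noise, with a chi-square of 1.12 to 3.39 per degree of freedom over 1730 genes. Other genes of the pathway and markers of other cell types are not analysed here, because the files do not pair IDs with symbols.

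The reference promoters are shown because Ciita acts through them. RefSeq windows (build GRCm38.p6) were found for 5 of the 8 genes, and 4 of them are printed, each with the 150 bases before the start of a transcript on chromosome 17, given 5′ to 3′ on the gene's own strand. Capitals mark matches to AACNGATG, which is the end of an X box, to ATTGG, the core of a Y box (an NF-Y site), and, for H2-Aa alone, to TGACG, the core of a cyclic AMP response element, as which part of an X box can be read.
H2-DMb2, + strand, chr17:34145099-34145248: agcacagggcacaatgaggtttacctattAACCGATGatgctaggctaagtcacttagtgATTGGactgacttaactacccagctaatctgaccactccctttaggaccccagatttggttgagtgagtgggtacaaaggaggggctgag
H2-DMb1, + strand, chr17:34153041-34153190: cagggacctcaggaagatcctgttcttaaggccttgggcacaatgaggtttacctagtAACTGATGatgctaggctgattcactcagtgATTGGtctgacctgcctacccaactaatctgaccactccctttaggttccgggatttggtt
H2-Eb1, + strand, chr17:34305717-34305866: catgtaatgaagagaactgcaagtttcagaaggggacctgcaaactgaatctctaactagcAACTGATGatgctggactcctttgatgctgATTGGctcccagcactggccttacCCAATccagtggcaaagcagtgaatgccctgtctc
H2-Aa, - strand, chr17:34287824-34287973: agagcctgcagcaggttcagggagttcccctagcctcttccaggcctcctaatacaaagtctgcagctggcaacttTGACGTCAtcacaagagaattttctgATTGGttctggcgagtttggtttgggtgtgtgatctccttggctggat

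The motifs were searched on both strands over 250 bases before each start, and their letters were chosen after the sequences had been seen. AACNGATG and ATTGG lay 23 bases apart in H2-DMb2, 23 in H2-DMb1 and 22 in H2-Eb1. H2-Eb1 held another ATTGG on the opposite strand, and in H2-Aa the 2 TGACG matches, 1 on each strand, overlap within the capital run. The windows of H2-DMa had no AACNGATG. Of 32851 mouse windows of this length, 1.98% held AACNGATG, 33.8% held ATTGG, 0.688% held both and 17.8% held TGACG. A match is a description of these letters, and no match says only that the letters are not in this window.

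Cells labelled mitotic carried fewer footprints on 5 of the 7 tested class II genes than asynchronous cells of the same genotype. Averaged over the 3 genotypes, Ciita fell to 31.2% of its asynchronous level, H2-Aa to 43.5%, H2-DMa to 62.2%, H2-Ab1 to 67.3% and H2-Eb1 to 83.4%. Cd74 (109% of the asynchronous level) and H2-DMb2 (90.0%) did not pass the test. In this comparison 20.0% of the 6692 genes were called lower, by the edgeR quasi-likelihood test with Benjamini-Hochberg adjusted p under 0.05, and the median log2 change was -0.57 over the 7 class II genes against -0.01 over all genes tested. For 2 genes, H2-Aa and Ciita, all 6 mitotic libraries lay below all 6 asynchronous libraries, which held for 4.81% of genes.

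**Figure D1:**
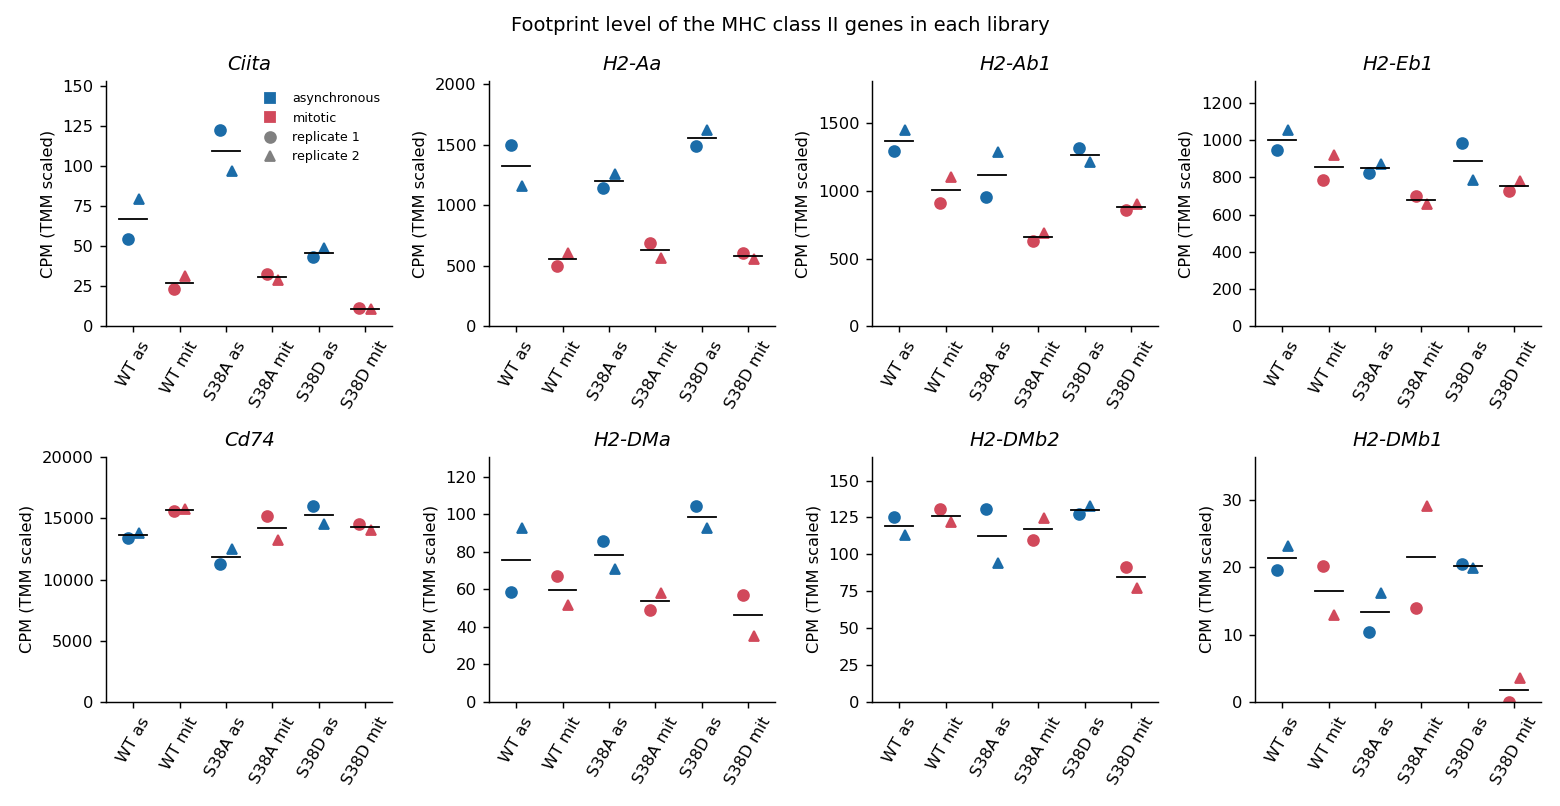
Footprint level of the 8 genes in each library, in CPM, with 1 panel per gene and 1 symbol per library (circle replicate 1, triangle replicate 2). CPM are counts relative to the library's total over tested genes after TMM, in the usual CPM unit. Asynchronous (as) is in blue, mitotic (mit) in red, and a line marks the mean of the 2 libraries. Every mitotic library lies below every asynchronous library for H2-Aa (499.7 to 689 against 1143 to 1621 CPM) and Ciita (10.5 to 32.7 against 43.1 to 123 CPM), while the states overlap for Cd74. The vertical axes start at 0 and differ between panels, so heights are not comparable between genes.

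Ciita, the co-activator, had 208 reads in all 12 libraries, the fewest of the tested class II genes. Its level was 54.7 and 79.6 CPM in asynchronous WT cells, 123 and 97.0 CPM in asynchronous S38A cells and 43.1 and 48.7 CPM in asynchronous S38D cells. In mitotic cells it was 23.5 and 31.1 CPM for WT, 32.7 and 29.1 CPM for S38A and 11.4 and 10.5 CPM for S38D, the last pair with 3 reads each. Asynchronous S38A cells had the highest group mean (109.8 CPM) and mitotic S38D cells the lowest (11.0 CPM). The next groups in the order were asynchronous WT (67.2 CPM) and asynchronous S38D (45.9 CPM), whose libraries did not overlap but whose difference did not pass the test, followed by mitotic S38A (30.9 CPM) and mitotic WT (27.3 CPM), whose libraries overlapped. The averaged log2 change of state was -1.68 ± 0.22 (SE; edgeR adjusted p = 9.9e-09). By genotype it was -1.28 ± 0.39 (WT), -1.83 ± 0.32 (S38A) and -2.03 ± 0.52 (S38D), with edgeR adjusted p of 0.0143, 1.1e-05 and 0.00245, so Ciita passed the test in each genotype. The wide interval in S38D, -3.07 to -0.99, goes with the 6 reads of that mitotic group.

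The 2 chains of I-A, one of the 2 classical mouse class II molecules, both fell in every genotype. The estimated falls of the 2 chains were closest to each other in S38A cells. H2-Aa, the alpha chain, was at 1497 and 1158 CPM in asynchronous WT, 1143 and 1258 CPM in asynchronous S38A and 1489.5 and 1621 CPM in asynchronous S38D cells. It was at 499.7 and 604 CPM in mitotic WT, 689 and 564 CPM in mitotic S38A and 607 and 558 CPM in mitotic S38D cells. All 6 mitotic values thus fell between 499.7 and 689 CPM, and the 3 mitotic groups overlapped. The log2 change of H2-Aa was -1.26 ± 0.14 for WT, -0.93 ± 0.14 for S38A and -1.42 ± 0.14 for S38D (SE; edgeR adjusted p = 4.4e-10, 4.5e-07 and 3.6e-12).

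H2-Ab1, the beta chain of I-A, was at 1294 and 1449.6 CPM in asynchronous WT, 955 and 1284 CPM in asynchronous S38A and 1315 and 1212 CPM in asynchronous S38D cells. Mitotic WT cells had 912 and 1104 CPM, mitotic S38D cells 862 and 905 CPM and mitotic S38A cells 628 and 689 CPM. Mitotic S38A libraries were the lowest of all 12. Mitotic WT replicate 2 lay above asynchronous S38A replicate 1, so the states overlapped over all genotypes and not within any of them. How many of all genes did the same was not computed. The log2 change was -0.44 ± 0.14 for WT, -0.76 ± 0.14 for S38A and -0.52 ± 0.14 for S38D (SE; edgeR adjusted p = 0.0155, 2.8e-05 and 0.00351).

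H2-Eb1 encodes the beta chain of I-E, the other classical molecule. It ranged from 786 to 1055 CPM with a median of 909.7 CPM in the 6 asynchronous libraries, and from 657 to 922 CPM with a median of 752 CPM in the 6 mitotic ones. The states overlapped over all genotypes, while within each genotype both mitotic libraries lay below both asynchronous ones. The share of all genes with that pattern was not computed. The averaged log2 change was -0.26 ± 0.09 (SE; edgeR adjusted p = 0.0182), smaller in size than for either chain of I-A. No single genotype passed the test for H2-Eb1, with values of -0.22 in WT (95% interval -0.50 to 0.05), -0.32 in S38A (-0.60 to -0.04) and -0.24 in S38D cells (-0.52 to 0.04). The averaged call was lost in 4 of the 12 fits that left out 1 library (WT asynchronous replicate 2, S38D asynchronous replicate 1, WT mitotic replicate 1 or S38D mitotic replicate 1), with log2 changes of -0.31 to -0.22 over the 12 fits.

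Cd74, the invariant chain, had 60254 of the class II reads and the smallest standard errors. Asynchronous libraries had 13421 and 13799.7 CPM in WT, 11243 and 12503 CPM in S38A and 16026 and 14573 CPM in S38D cells. Mitotic libraries had 15629 and 15794 CPM in WT, 15212 and 13245 CPM in S38A and 14545 and 14081 CPM in S38D cells. Mitotic WT (mean 15711 CPM) and asynchronous S38D (15299 CPM) stood highest, their libraries overlapping, and asynchronous S38A stood lowest (11873 CPM). The log2 change of state was 0.21 ± 0.09 in WT (SE; edgeR adjusted p = 0.106), 0.26 ± 0.09 in S38A (adjusted p = 0.0330) and -0.10 ± 0.09 in S38D cells (adjusted p = 0.4996). Cd74 thus rose in S38A cells, where 9.03% of genes were called higher. That call ended with DESeq2 (adjusted p = 0.0900) and when S38A asynchronous replicate 1 or S38A mitotic replicate 1 was left out (log2 change down to 0.17, edgeR adjusted p up to 0.342).

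The H2-DM genes were read at far lower depth. H2-DMa, the alpha chain of the peptide exchanger, had 299 reads. It ranged from 58.6 to 105 CPM with a median of 89.5 CPM in asynchronous and from 35.1 to 67.1 CPM with a median of 54.5 CPM in mitotic libraries, and only asynchronous WT replicate 1 fell among the mitotic values. The averaged log2 change was -0.69 ± 0.19 (SE; edgeR adjusted p = 0.00224). In S38D cells alone it passed the test, from 105 and 93.0 CPM to 57.2 and 35.1 CPM (log2 change -1.11 ± 0.32, edgeR adjusted p = 0.00659), whereas WT gave -0.39 (95% interval -1.04 to 0.26) and S38A -0.57 (-1.17 to 0.04). The S38D call ended with DESeq2 (adjusted p = 0.0892) and without S38D mitotic replicate 2 (log2 change -0.76, edgeR adjusted p = 0.241).

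H2-DMb2 and H2-DMb1 encode beta chains of H2-DM and lie next to each other on chromosome 17. They are closely similar copies, so their reads may be shared or lost in counting and both are uncertain. H2-DMb2 was at 125 and 113 CPM in asynchronous WT, 130.4 and 93.8 CPM in asynchronous S38A and 127 and 133 CPM in asynchronous S38D cells. Mitotic WT cells had 131 and 122 CPM, mitotic S38A cells 109.7 and 124.5 CPM and mitotic S38D cells 91.6 and 77.2 CPM, the 2 lowest of the 12 values. The log2 change was 0.09 ± 0.25 for WT, 0.04 ± 0.24 for S38A and -0.63 ± 0.26 for S38D (SE; edgeR adjusted p = 0.867, 0.934 and 0.0740), and none passed the test.

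H2-DMb1 had 69 reads in all libraries. Reads in the pairs of libraries were 5 and 7 in asynchronous WT, 4 and 5 in asynchronous S38A and 10 and 9 in asynchronous S38D cells. Mitotic pairs had 6 and 5 in WT, 6 and 11 in S38A and 0 and 1 in S38D cells. The library with 0 of 274071 reads allows a level of up to 11.4 CPM (3 reads). Per coding read of the group, asynchronous over mitotic gave a ratio of 11.2 in S38D cells (19 reads against 1, exact 95% interval 1.78 to 465), 1.35 in WT cells (12 against 11, 0.544 to 3.37) and 0.608 in S38A cells (9 against 17, 0.239 to 1.44). These intervals and the floor cover counting error only. With the reads of both beta chain genes summed, an alternative added once the data had been seen, the log2 change in S38D cells was -0.79 ± 0.25 (SE; edgeR adjusted p = 0.0160), against -0.01 ± 0.24 in WT and 0.14 ± 0.23 in S38A cells, neither of which passed. The difference of these changes did not pass either, at -0.78 ± 0.35 for S38D minus WT (edgeR adjusted p = 0.699) and -0.93 ± 0.34 for S38D minus S38A (edgeR adjusted p = 0.256).

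**Figure D2:**
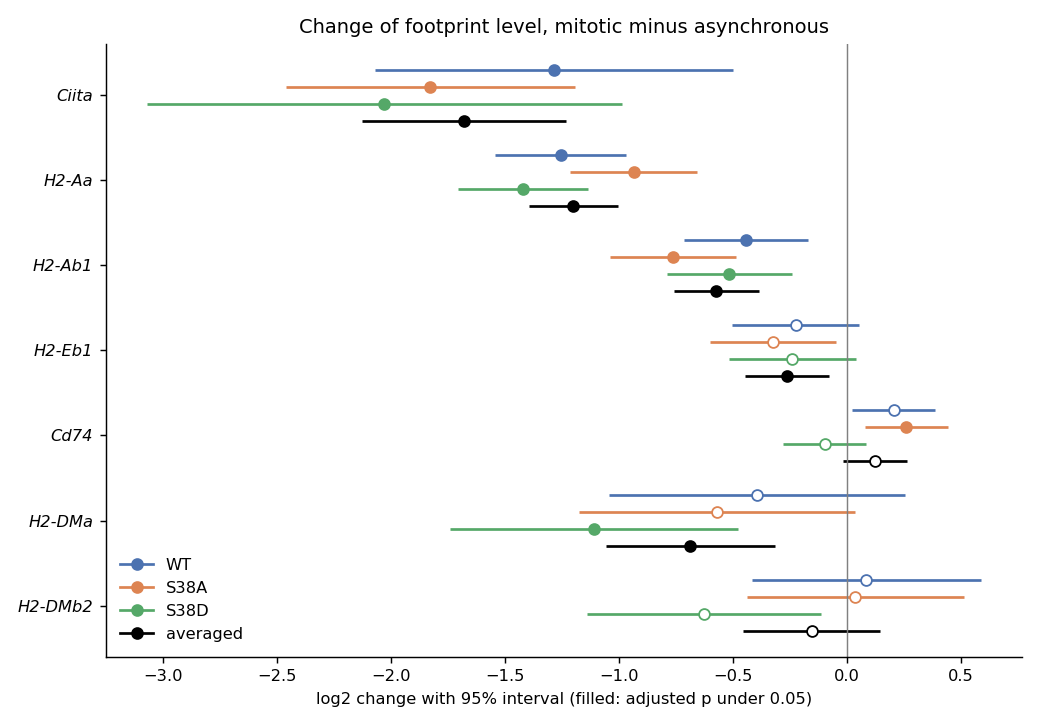
Log2 change of footprint level from asynchronous to mitotic cells for the 7 tested genes, in each genotype and averaged over the 3 genotypes; points are edgeR estimates, bars their 95% intervals, and filled points have an adjusted p under 0.05. Ciita, H2-Aa and H2-Ab1 are filled and below 0 in all 3 genotypes, and Cd74 lies at 0.21, 0.26 and -0.10.

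Within WT cells 3 class II genes fell (Ciita, H2-Aa and H2-Ab1), where 9.26% of all genes were called lower. The same 3 fell in S38A cells, where 9.59% were called lower, and these 3 and H2-DMa fell in S38D cells, where 10.9% were. The median log2 change over the 7 genes was -0.39 (WT), -0.57 (S38A) and -0.63 (S38D), against -0.0037 to -0.029 over all genes. H2-Aa passed in all 12 fits with 1 library left out in every genotype, while the WT count went from 3 to 1 without WT asynchronous replicate 2 or WT mitotic replicate 1, where H2-Ab1 and Ciita no longer passed (edgeR adjusted p up to 0.235 and 0.265). The S38D count went from 4 to 1 without S38D mitotic replicate 2, and was 2 with DESeq2, which gave Ciita no adjusted p.

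**Figure D3:**
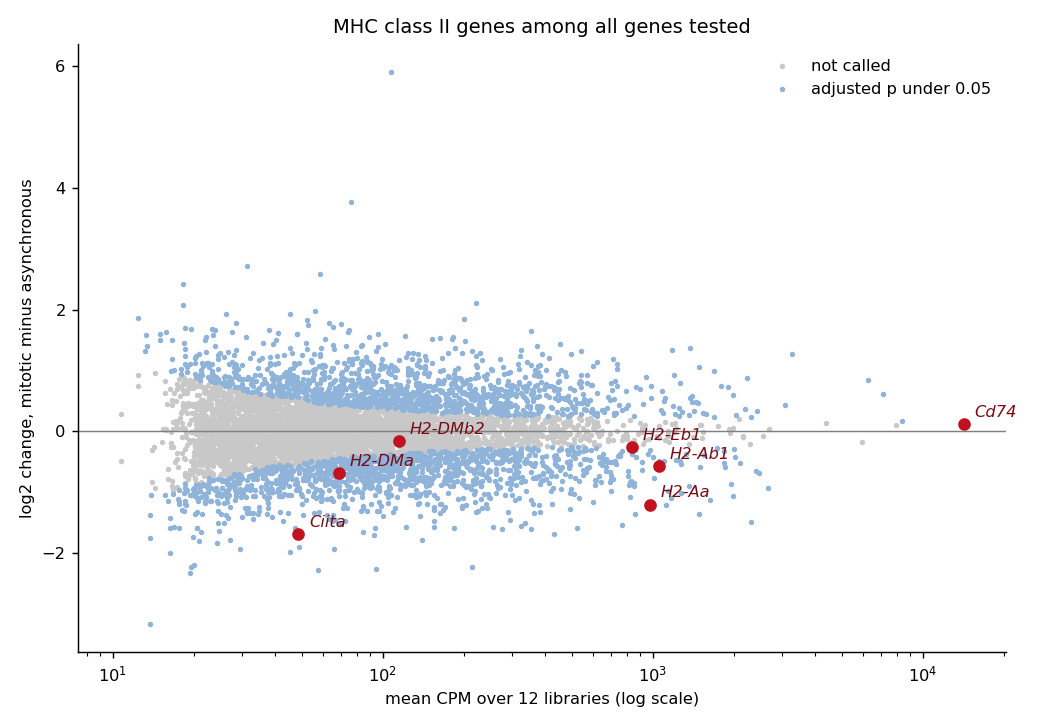
Averaged log2 change from asynchronous to mitotic cells (vertical axis) against mean level over the 12 libraries in CPM (horizontal axis, log scale) for the 6692 genes tested, with genes of adjusted p under 0.05 in light blue, others in grey and the 7 class II genes in red. Cd74 stands at the far right close to 0, and Ciita (-1.68) and H2-Aa (-1.20) lie low.

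The share of uncounted reads moved with state. Uniquely aligned reads outside counted features were 18.0 to 25.8% in asynchronous and 25.6 to 34.6% in mitotic libraries. Alignments to more than 1 place, as a share of themselves and the unique reads, were 62.3 to 68.3% in asynchronous and 65.8 to 73.0% in mitotic libraries, and higher in both mitotic libraries of each genotype than in its asynchronous ones. The part of either share in these results was not tested. A ratio of 2 genes' reads within a library leaves out depth and scaling altogether, and was computed for 6 pairs after the data had been seen. Since genes differ in length, such a ratio is compared between libraries only. State was permuted within genotype, which allows 216 assignments and a smallest two-sided p of 0.00926.

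H2-Aa reads per Cd74 read lay between 0.0839 and 0.112 in the 6 asynchronous and between 0.0320 and 0.0453 in the 6 mitotic libraries, without overlap. The ratio was 2.52-fold lower in mitotic cells (log2 difference -1.33, exact permutation p = 0.00926, adjusted over the 6 ratios 0.0139), and by genotype the log2 difference was -1.47 (WT), -1.20 (S38A) and -1.32 (S38D). H2-Ab1 per Cd74 went from 0.0821 to 0.105 in asynchronous down to 0.0413 to 0.0699 in mitotic libraries, also without overlap (log2 difference -0.70, exact permutation p = 0.00926). H2-Eb1 per Cd74 overlapped between states, with 0.0540 to 0.0764 against 0.0459 to 0.0584 (log2 difference -0.39, exact permutation p = 0.0185).

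The 3 classical chains also moved apart from each other. H2-Aa per H2-Eb1 was 1.10 to 2.06 in asynchronous and 0.634 to 0.987 in mitotic libraries (log2 difference -0.95, exact permutation p = 0.00926). H2-Aa per H2-Ab1, the ratio of the 2 partners in I-A, was 0.799 to 1.34 and 0.547 to 1.10, so the states overlapped, and its log2 difference of -0.64 (exact permutation p = 0.0185) was made up of -0.81 (WT), -0.19 (S38A) and -0.90 (S38D). H2-Ab1 per H2-Eb1 was 1.16 to 1.54 and 0.8997 to 1.20 (log2 difference -0.31, exact permutation p = 0.00926). Adjusted over the 6 ratios, p was 0.0139 where it was 0.00926 and 0.0185 where it was 0.0185.

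**Figure D4:**
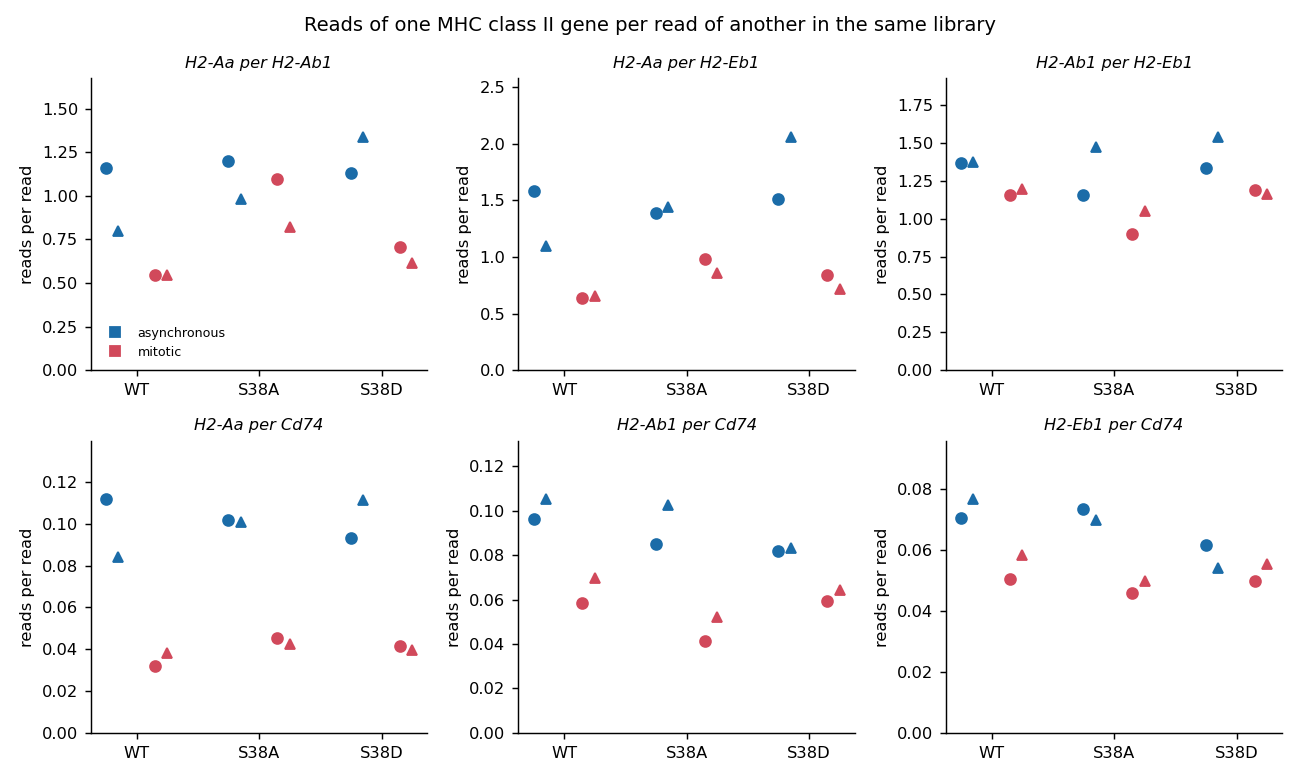
Reads of one class II gene per read of another in the same library, 1 panel per ratio, grouped by genotype, with asynchronous libraries in blue and mitotic ones in red and circles and triangles for replicates 1 and 2. H2-Aa per Cd74 separates the states completely (0.0839 to 0.112 against 0.0320 to 0.0453), and H2-Aa per H2-Ab1 does not (0.799 to 1.34 against 0.547 to 1.10).

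Between genotypes the calls of class II genes fell on Ciita, H2-Ab1 and Cd74. The 3 genotype comparisons within a state share libraries with each other and are given side by side. Over both states, Ciita was 2.43-fold lower in S38D than in S38A cells (log2 difference -1.28 ± 0.26, SE; edgeR adjusted p = 1.6e-04), the 1 class II gene called where 17.9% of genes were. H2-Ab1 was 1.37-fold lower in S38A than in WT cells (-0.45 ± 0.11, edgeR adjusted p = 0.00248), again the 1 gene called, where 18.0% were. Between S38D and WT cells edgeR called 0 class II genes, where 4.77% of genes were called. Ciita had an unadjusted p under 0.05 there (log2 difference -0.75, 95% interval -1.33 to -0.17, edgeR adjusted p = 0.127), and DESeq2 also called 0.

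In asynchronous cells, Ciita at 43.1 and 48.7 CPM in S38D lay below 123 and 97.0 CPM in S38A (log2 difference -1.27 ± 0.28, SE; edgeR adjusted p = 0.00165). Cd74 went the other way, with 16026 and 14573 CPM in S38D against 11243 and 12503 CPM in S38A (0.37 ± 0.09, edgeR adjusted p = 0.00528). These were the 2 class II genes called, where 8.71% of genes were. Without S38A asynchronous replicate 1 neither passed (edgeR adjusted p up to 0.115 for Ciita and 0.1299 for Cd74), and with only these 2 groups in the fit Cd74 did not. H2-Aa showed a log2 difference of 0.38 (95% interval 0.11 to 0.64) that missed the threshold (edgeR adjusted p = 0.0602).

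S38A against WT in asynchronous cells gave 0 calls by edgeR, where 9.32% of genes were called, and 0 calls by DESeq2. At an unadjusted p under 0.05 were 3 class II genes (Ciita, H2-Ab1 and Cd74), a level at which the share of all genes was not computed. Their log2 differences were 0.70 (95% interval 0.12 to 1.29), -0.30 (-0.57 to -0.03) and -0.20 (-0.38 to -0.02). Ciita had no adjusted p from DESeq2 here. S38D against WT in asynchronous cells gave 0 calls by edgeR, 0 at an unadjusted p under 0.05 and 0 by DESeq2, where 3.33% of genes were called by edgeR. In this comparison Ciita, H2-DMa and H2-DMb2 had no adjusted p from DESeq2. There the intervals ran from -0.38 to 0.14 for H2-Ab1 and from -1.23 to 0.09 for Ciita, which shows how far a difference could go unseen at this depth.

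In mitotic cells H2-Ab1 was lower in S38A than in either other genotype. With 628 and 689 CPM it lay below WT with 912 and 1104 CPM (log2 difference -0.62 ± 0.14, SE; edgeR adjusted p = 9.3e-04), the 1 class II gene called where 13.2% were. It also lay below S38D with 862 and 905 CPM (S38D minus S38A 0.43 ± 0.14, edgeR adjusted p = 0.0362), the 1 called where 12.9% were. Ciita had an unadjusted p under 0.05 in that comparison, with 11.4 and 10.5 CPM in S38D against 32.7 and 29.1 CPM in S38A (log2 difference -1.47, 95% interval -2.63 to -0.32), and missed the threshold (edgeR adjusted p = 0.0849). The call against WT ended without WT mitotic replicate 2 or S38A mitotic replicate 1 (edgeR adjusted p up to 0.126). The call against S38D ended without any of the 4 libraries compared, with DESeq2 (adjusted p = 0.0504) and with scaling by library totals (0.0516). S38D against WT in mitotic cells gave 0 calls by edgeR, where 1.82% of genes were called. There 2 class II genes had an unadjusted p under 0.05, Ciita (log2 difference -1.31, 95% interval -2.53 to -0.10) and H2-DMb2 (-0.58, -1.12 to -0.04). The share of all genes at that level was not computed. DESeq2 also gave 0 calls, but it gave Ciita, H2-DMb2 and H2-DMa no adjusted p and so could not call them.

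**Figure D5:**
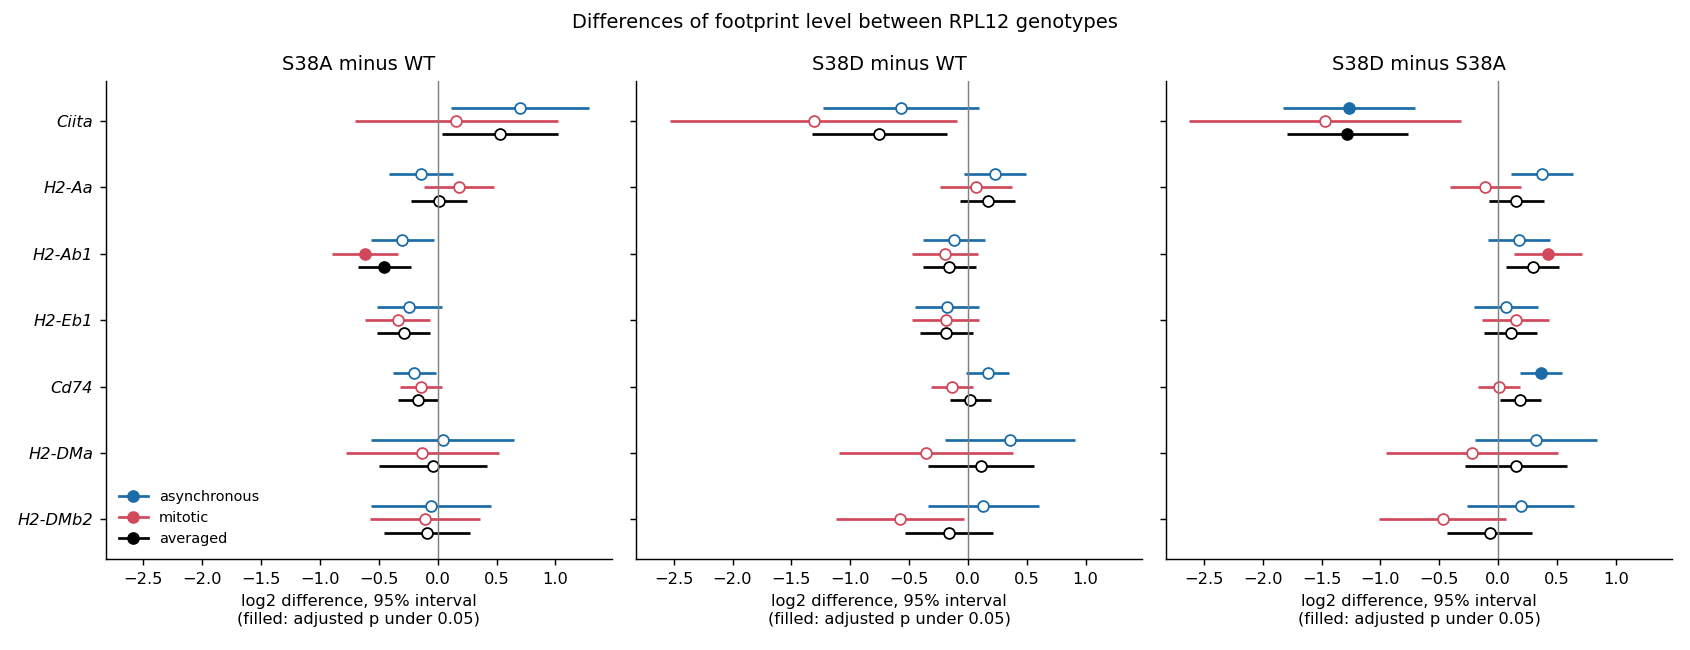
Log2 differences of footprint level between RPL12 genotypes for the 7 tested genes, in asynchronous cells (blue), in mitotic cells (red) and averaged over both states (black), 1 panel per pair of genotypes; bars are 95% intervals and filled points have an adjusted p under 0.05. No point is filled for S38D minus WT, and Ciita lies left of 0 in all 3 rows of S38D minus S38A.

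Whether the change of state itself differed between genotypes was tested as a difference of differences. For S38A against WT, S38D against WT and S38D against S38A, edgeR called 0, 0 and 0 of the 7 class II genes, where 0.448%, 0.0598% and 0.239% of all genes were called. DESeq2 called 0 in each, but for S38A against WT it gave Ciita, H2-DMa and H2-DMb2 no adjusted p. Unadjusted p was under 0.05 for 0, 1 and 2 class II genes, a level at which the share of all genes was not computed. Cd74 accounted for the 1 against WT, its log2 change in S38D minus that in WT being -0.30 (95% interval -0.56 to -0.05, edgeR adjusted p = 0.676). Against S38A, the change in S38D cells differed by -0.36 for Cd74 (-0.61 to -0.10, edgeR adjusted p = 0.251) and by -0.48 for H2-Aa (-0.88 to -0.09, edgeR adjusted p = 0.346). For H2-DMb2 the change in S38D minus that in WT was -0.71 (-1.43 to 0.01), so its change of state was not shown to differ between these genotypes. Its level in mitotic cells was not called different either (S38D minus WT -0.58, 95% interval -1.12 to -0.04, edgeR adjusted p = 0.369).

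Among 6685 other genes, those whose log2 CPM over the 12 libraries were most like the mean of H2-Aa, H2-Ab1, H2-Eb1 and Cd74, each standardized, were ENSMUSG00000019302.16 (Pearson r = 0.873) and ENSMUSG00000031813.8 (r = 0.871). The least like were ENSMUSG00000032353.9 (r = -0.945) and ENSMUSG00000020994.5 (r = -0.905). These are the ends of a ranking over libraries that share state, genotype and depth, given as a description without a test.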

How the data were processed

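The authors deposited 1 table of raw read counts per library for versioned Ensembl gene IDs and 5 summary rows, which stayed out of library sizes and tests. Per the submitters' processing notes, the tools were STAR 2.5.3a, Bowtie2 2.3.2, HTSeq 0.9.1, bcl2fastq 2.16.0.10 and DESeq2 1.18.1 on build mm10, with neither roles nor parameters stated. Per the labels' protocols, cells were harvested in cycloheximide (100 µg/ml), RNase I digested the lysates, and fragments of 27 to 30 nt were cloned. Use of strand and treatment of duplicate reads are not given in the sources used here. The labels do not give the H2 haplotype of the line, and its effect on alignment was not tested. Reads that aligned to more than 1 place, as those of a closely similar copy can, are in a summary row of the deposited tables.

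CPM are counts relative to the total over tested genes after TMM, in the usual CPM unit. The test was the quasi-likelihood F test of edgeR 4.0.16 in R 4.3.3, after TMM scaling and filterByExpr at a minimum count of 10. All 6 groups entered 1 model, and averaged comparisons used an additive model of genotype and state. P-values were Benjamini-Hochberg adjusted over 6692 genes with a threshold of 0.05. The standard error is the log2 change over the square root of F, and intervals are 95%. Likeness used log2 CPM with a prior count of 2 and genes with a mean of at least 10 CPM. The procedure was also run on simulated counts with known changes, and the outcome is not given here. Those counts were drawn with the spread estimated from these libraries, so the run cannot show whether that spread is technical. Alternatives were DESeq2 1.42.0, its size factors in edgeR, library totals, other filters, only the groups compared, a replicate block and leaving out each library. Replicate numbers showed no consistent pairing of the samples, since deviations correlated at over 0.1 in 2 of 15 pairs of groups (-0.311 to 0.114). Whether libraries of different groups shared a batch was not tested. All 8 genes were named by rule. The genes, lists and tests were chosen with earlier results of these data known. Gene lists by symbol could not be matched to IDs, and coding lengths were not used here.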

Additional observations from a re-analysis of the deposited data

How the results depend on the processing

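Counts of class II genes called that differed by over 1.5 times from those given above were as follows. The share of all genes called was not computed under these settings or with a library left out. A moved class II count can therefore not be told apart from a moved share over all genes. With DESeq2 they were 2 for state in S38D cells, 1 for S38D against S38A in asynchronous and 0 in mitotic cells. In each of these comparisons DESeq2 gave Ciita no adjusted p and so could not call it. Its DESeq2 log2 difference for S38D against S38A in asynchronous cells was -1.27. With DESeq2 size factors the averaged S38D against S38A count was 2. With library totals the count was 0 for S38D against S38A in mitotic cells and 2 for averaged S38A against WT. Without a filter on low counts, S38D against S38A gave 2 in mitotic cells and 3 averaged. With a mean of at least 10 CPM it gave 2 in mitotic cells. In both mitotic counts of 2, the gene beside H2-Ab1 was H2-DMb1, which had 69 reads and entered the test under these filters. With only the 2 groups in the fit, S38D against S38A in asynchronous cells gave 1 and S38A against WT in mitotic cells 2.

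The fits that each left out 1 library called 1 to 3 class II genes for state in WT, 3 to 4 in S38A, 1 to 5 in S38D and 4 to 5 averaged. They called 0 to 3 for S38D against S38A in asynchronous and 0 to 2 in mitotic cells, 0 to 1 for S38A against WT in mitotic cells and 1 to 2 for averaged S38D against S38A. Other comparisons kept their count in these 12 fits, in which the lone library left in a group is assumed to vary like the other groups. Leaving out a library also changed the filter on low counts, so some of these fits tested H2-DMb1. The top of the range for state in S38D cells, and of that for S38D against S38A in mitotic cells, included H2-DMb1. With the replicate block the counts were those of the unblocked fit, with 5 for the averaged change of state, 3 (WT), 4 (S38A) and 4 (S38D) within genotypes.

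Direction turned only for values that passed no test, among the state and averaged comparisons. H2-Aa in averaged S38A against WT went to -0.000335 with DESeq2, -0.00054 with its size factors and -0.0242 with library totals, and ran from -0.11 to 0.094 with 1 library left out. Cd74 in averaged S38D against WT went to -0.0262 with library totals and ran from -0.038 to 0.098. With 1 library left out, H2-DMa ran from -0.70 to 0.0063 for state in WT, from -0.21 to 0.067 for averaged S38A against WT and from -0.060 to 0.27 for averaged S38D against WT. H2-DMb2 ran from -0.17 to 0.31 for state in S38A cells, from -0.18 to 0.029 for averaged S38A against WT and from -0.19 to 0.060 for averaged S38D against S38A, and its change in WT was -0.0075 with H2-DMb1 reads added. The cause of these moves was not tested. The 6 read ratios kept their direction and their side of the threshold with each library left out. The median averaged change of state over all genes stayed between -0.015 and -0.0063 under every scaling and filter run.

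Depth limits Ciita, H2-DMa and the H2-DMb genes most, and groups of 2 libraries limit all of them.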
